A study of Mus musculus with 6 samples.

Results

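The 32 genes described here make, sense, move and export cholesterol. They were chosen by gene symbol, and each matched 1 mouse Ensembl identifier among the 54838 in the files. All 32 passed the filter on low counts, so every member was tested, among 17086 genes in all. The members are 18 synthesis enzymes, 5 genes of the SREBP system, the LXR genes Nr1h2 and Nr1h3, the ubiquitin ligase gene Mylip, 4 genes of lysosomal exit, transfer and storage, and the export pump genes Abca1 and Abcg1. The RNA came from glomeruli of mice aged 3 weeks. There were 3 libraries labelled CTRL, with the genotype wild type (157, 162 and 163), and 3 labelled KO, with the genotype bPIX -/- (146, 147 and 148). The series describes the loss of bPIX as specific to podocytes, the epithelial cells that wrap the glomerular capillaries. bPIX is encoded by Arhgef7. The sources used here name neither the Cre line nor the strain. The deposited file names carry the other group for all 6 libraries. Groups and library numbers follow the sample labels. If the file names were right, every log2 fold change below would change sign and keep its size, and every KO over CTRL ratio would be inverted. Each library named below would then belong to the other group, and its number could differ too.

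Cells build cholesterol from acetyl-CoA in a long chain of steps that runs through mevalonate, farnesyl pyrophosphate and squalene to lanosterol and from there to cholesterol. When sterol in the endoplasmic reticulum is low, Scap carries the SREBP precursors to the Golgi, where they are cut into transcription factors that switch on these enzymes. Insig proteins hold Scap back when sterol is plentiful. Oxysterols act through the LXR receptors, which raise the export pumps and Mylip, a ligase that marks lipoprotein receptors for degradation. Defects of cholesterol export are known to injure podocytes.

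Gene counts totalled 39841396 to 51917945 per library. On the first principal component of log2 CPM (CPM, counts scaled to a common library size after TMM), which held 68.8% of the variance, KO 146 lay at 82.7, KO 147 at 26.1, KO 148 at 3.5 and the libraries labelled CTRL between -42.3 and -34.7. Arhgef7 had 3956, 3582 and 3915 counts in CTRL 157, 162 and 163, and KO 146, 147 and 148 had 7837, 3712 and 3903. A count per gene cannot show the loss of single exons, so it does not settle which label is right. Ddx3y, a Y-linked gene, was counted 2112 to 4197 times and Xist 1 to 4 times per library, a male pattern in both groups. Of 20 proximal tubule markers, all had a negative log2 fold change, and their summed level was 43714, 41615 and 42178 CPM in CTRL 157, 162 and 163 and 19257, 29536 and 32671 CPM in KO 146, 147 and 148. The 15 podocyte markers all had a positive log2 fold change and summed to 1483, 1399.9 and 1606 CPM and to 9207, 4015 and 2788 CPM in the same order. Of the 15, edgeR called 0 and DESeq2 called 14 higher, against 0.591% and 11.4% of all genes. The sums of the 13 endothelial markers were 866 to 1017 CPM against 5814, 2559 and 1736 CPM. Those of the 12 mesangial and smooth muscle markers, called mesangial below, were 321 to 335 CPM against 2131, 856 and 599 CPM. In every library the proximal tubule markers summed above the podocyte markers, so tubule RNA was part of these glomerular preparations. Which cells the member transcripts came from was not tested. In bulk RNA, fewer cells of a type and less RNA per cell cannot be told apart.

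Transcripts of 4 members fell in the libraries labelled KO. They were Idi1, which makes the building block dimethylallyl pyrophosphate, Msmo1 and Sc5d, which act on sterols after lanosterol, and Insig1, which holds the SREBP escort back. The fitted ratio of KO to CTRL by label was 0.549 for Idi1, 0.609 for Insig1, 0.689 for Msmo1 and 0.687 for Sc5d. The other 28 members did not pass the edgeR quasi-likelihood test at a Benjamini-Hochberg adjusted p of 0.05, and 0 were called higher. Over all genes tested, edgeR called 0.421% lower and 0.591% higher. At an unadjusted p below 0.05, 16 members were lower and 1 was higher, against 11.8% and 17.5% of all genes. DESeq2 called 8 members lower and 1 higher (5.11% and 11.4% of all genes), and limma-voom called 4 and 0 (0.363% and 0.433%). Log2 fold changes are given as KO minus CTRL by label. Their median was -0.24 over the 32 members and -0.01 over all genes tested, and 27 of 32 were negative (50.7% of all genes). When libraries were scaled by their totals alone, these medians were -0.11 and 0.13. The groups did not overlap in 20 members, 19 of them with the libraries labelled KO below (19.6% of all genes) and 1 with them above (21.9%).

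**Figure D1:**
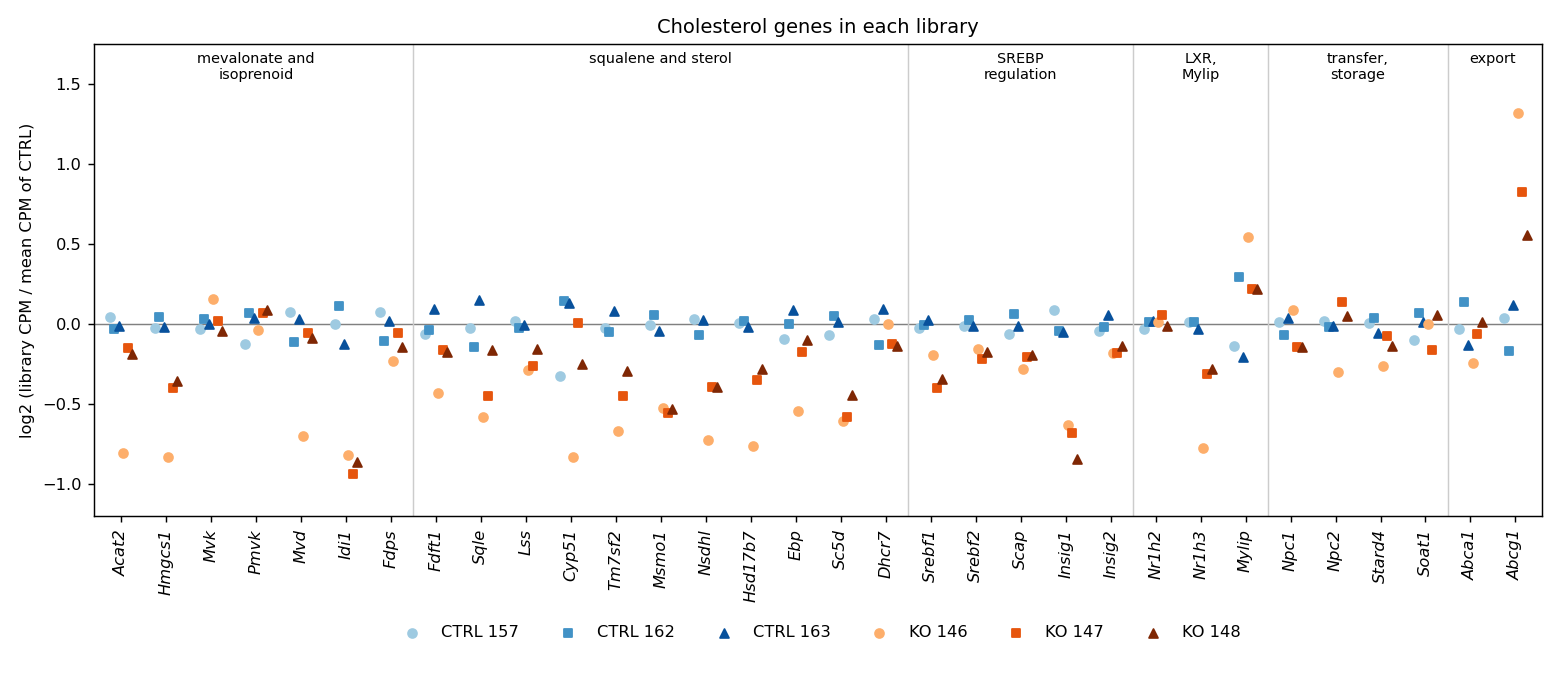
Level of each of the 32 cholesterol genes in each library, as log2 of its CPM over the mean CPM of the 3 libraries labelled CTRL, ordered by role. Blue symbols are CTRL and orange to brown symbols KO. The KO symbols of Idi1, Msmo1, Sc5d and Insig1 lie close together below CTRL, while for Acat2, Hmgcs1, Mvd and Cyp51 KO 146 lies far below KO 147 and KO 148.

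The promoters of these 4 genes and of Hmgcs1 are shown because they are the genes of the route that fell and the most abundant enzyme transcript of the set. Each is 300 bases long, from 250 before to 50 after the RefSeq start, read 5′ to 3′ on the gene's strand in GRCm38.p6. The regions are chr13:8885356-8885655 for Idi1 (plus strand), chr8:64733529-64733828 for Msmo1 (minus), chr9:42264251-42264550 for Sc5d (minus), chr5:28071162-28071461 for Insig1 (plus) and chr13:119690101-119690400 for Hmgcs1 (plus). Capitals mark CCAAT, the box bound by NF-Y, which works with SREBPs, together with CACGTG, an E-box, and TCACNCCAC, a form of the sterol regulatory element, each on either strand.
Idi1: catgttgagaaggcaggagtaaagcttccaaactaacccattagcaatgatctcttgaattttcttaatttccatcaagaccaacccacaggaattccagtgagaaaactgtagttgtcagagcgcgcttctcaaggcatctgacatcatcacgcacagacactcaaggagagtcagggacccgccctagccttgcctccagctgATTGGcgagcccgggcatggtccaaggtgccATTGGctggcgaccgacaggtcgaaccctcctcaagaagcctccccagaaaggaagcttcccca
Msmo1: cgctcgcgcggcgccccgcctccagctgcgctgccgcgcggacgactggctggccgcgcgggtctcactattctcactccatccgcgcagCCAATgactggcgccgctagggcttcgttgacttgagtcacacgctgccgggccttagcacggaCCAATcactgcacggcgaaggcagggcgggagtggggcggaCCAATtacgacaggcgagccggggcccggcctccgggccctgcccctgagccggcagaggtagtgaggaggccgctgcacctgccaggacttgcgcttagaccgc
Sc5d: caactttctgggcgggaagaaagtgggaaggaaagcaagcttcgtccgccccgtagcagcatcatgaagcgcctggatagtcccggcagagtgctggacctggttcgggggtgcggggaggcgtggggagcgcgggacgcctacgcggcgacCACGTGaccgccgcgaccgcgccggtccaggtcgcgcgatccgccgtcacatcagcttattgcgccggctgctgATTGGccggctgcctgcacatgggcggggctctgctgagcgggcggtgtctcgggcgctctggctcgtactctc
Insig1: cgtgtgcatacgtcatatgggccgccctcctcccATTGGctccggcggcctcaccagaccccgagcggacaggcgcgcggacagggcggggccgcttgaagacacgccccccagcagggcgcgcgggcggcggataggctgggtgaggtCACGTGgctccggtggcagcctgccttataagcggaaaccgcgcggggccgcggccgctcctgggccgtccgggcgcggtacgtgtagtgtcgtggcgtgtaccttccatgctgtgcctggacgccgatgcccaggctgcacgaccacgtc
Hmgcs1: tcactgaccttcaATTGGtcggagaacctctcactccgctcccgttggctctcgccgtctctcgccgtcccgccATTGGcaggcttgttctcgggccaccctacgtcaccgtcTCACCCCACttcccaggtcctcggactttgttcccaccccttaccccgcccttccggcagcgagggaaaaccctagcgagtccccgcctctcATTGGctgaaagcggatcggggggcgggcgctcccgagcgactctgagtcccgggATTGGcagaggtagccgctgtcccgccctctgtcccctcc

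All 5 hold at least 1 CCAAT box. Idi1 has 2, Msmo1 3, Sc5d 1, Insig1 1 and Hmgcs1 4. Of the 26 members with a promoter in the table, 21 (80.8%) hold CCAAT, against 42.06% of tested genes with a promoter and 41.06% of all genes in the table. The letters TCACNCCAC were in the Hmgcs1 promoter alone among the 26 members, and in 1.46% of tested genes. CACGTG was in 6 of 26 members (23.1%), among them Sc5d and Insig1, and in 11.15% of tested genes. GGGCGG, the Sp1 box, was in 23 of 26 (88.5%) and in 64.27% of tested genes. These matches are descriptions of letters in a short window and say nothing of binding in these samples.

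The route opens with 7 members that lead from acetyl-CoA to farnesyl pyrophosphate. Of these, Idi1 fell (0.421% of all genes did), 0 were called higher (0.591%) and 6 did not pass. The median log2 fold change was -0.26. Idi1 (ENSMUSG00000058258, chromosome 13, 8885501 to 8892451, plus strand, GRCm38) was at 22, 23.8 and 20.2 CPM in CTRL 157, 162 and 163 and at 12.5, 11.5 and 12.1 CPM in KO 146, 147 and 148. The highest KO library was thus well below the lowest CTRL library, and the spread within each group was small. Its mean was 22 ± 1.83 CPM and 12.1 ± 0.503 CPM (SD, n = 3 each), a log2 fold change of -0.87 (SE 0.099, edgeR adjusted p = 0.0311). It was counted 478 to 945 times per library, and 23.6% of the 75-base stretches of its transcripts also occur in other genes, mostly the Gm13502 transcript, so reads that align to several places are missing from it. Gm48574, an annotated gene on the other strand, covers 9.22% of the Idi1 exon length.

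Hmgcs1, which joins acetoacetyl-CoA and acetyl-CoA at the start of the mevalonate pathway, had the highest level per length of all members. It was at 624, 655 and 627 CPM in the libraries labelled CTRL and 357, 482 and 496 CPM in KO 146, 147 and 148. The groups did not overlap, but the libraries labelled KO differed among themselves, with KO 146 the lowest (log2 fold change -0.51, SE 0.15, edgeR adjusted p = 0.0875). Gm48342, on the other strand, covers 12.1% of the Hmgcs1 exon length. Acat2, the cytosolic thiolase that makes acetoacetyl-CoA, was at 101, 96.2 and 97.2 CPM and at 56.2, 88.5 and 86.3 CPM in the same order (log2 fold change -0.35, SE 0.17, adjusted p = 0.229). Acat2 shares 33.9% of its 75-base stretches with its copy Acat3 and is therefore uncertain. The kinase genes Mvk and Pmvk differed little between the groups, at 14.5 ± 0.303 against 15 ± 1.04 CPM and 16 ± 1.12 against 16.5 ± 0.785 CPM. Mvd, the decarboxylase that follows them, had a log2 fold change of -0.26 and overlapping groups, with KO 146 at 43.0 CPM and the other 5 libraries between 64.7 and 73.7 CPM. Fdps, which joins the isoprene units to farnesyl pyrophosphate, stood at -0.14 (SE 0.10, adjusted p = 0.395), and Gm43738, an annotated gene on the same strand, covers 26.7% of its exon length.

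From squalene onward, all 11 members had a negative log2 fold change, although Dhcr7 turned positive with library totals and Cyp51 and Ebp in fits with the mean level of tubule or of glomerular markers as a covariate. Msmo1 and Sc5d fell (0.421% of all genes did), 0 were called higher (0.591%) and 9 did not pass. The median was -0.38, with a range from -0.54 to -0.09. In 9 of the 11 the groups did not overlap, with KO below, as in 19.6% of all genes. Msmo1 is a methyl sterol oxidase that acts after lanosterol (ENSMUSG00000031604, chromosome 8, 64718139 to 64733792, minus strand). It was at 27.8, 29.0 and 27.1 CPM in CTRL 157, 162 and 163 and at 19.4, 19.0 and 19.3 CPM in KO 146, 147 and 148. Every KO library lay below every CTRL library. The means were 27.9 ± 0.958 and 19.3 ± 0.206 CPM (SD, n = 3 each), with a log2 fold change of -0.54 (SE 0.075, edgeR adjusted p = 0.0371). Sc5d, a late desaturase of the sterol ring (ENSMUSG00000032018, chromosome 9, 42251595 to 42264256, minus strand), was at 45.3, 49.3 and 48.0 CPM and at 31.2, 31.8 and 34.9 CPM in the same order (log2 fold change -0.54, SE 0.080, adjusted p = 0.0411). The groups of Sc5d did not overlap either. Neither Msmo1 nor Sc5d shared a 75-base stretch with another annotated gene.

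The other 9 sterol enzymes had log2 fold changes in the same direction that did not pass the test. Nsdhl, which removes a carboxyl group during demethylation, was at 70.3, 65.5 and 69.8 CPM in CTRL and 41.6, 52.3 and 52.3 CPM in KO 146, 147 and 148 (log2 fold change -0.49, SE 0.11, edgeR adjusted p = 0.0753). Hsd17b7, the ketoreductase of the same demethylation complex, was at 22.4 to 23.0 CPM and at 13.4, 17.8 and 18.7 CPM (-0.45, adjusted p = 0.0929). Tm7sf2, a sterol reductase, was at 11.1 to 12.2 CPM and at 7.23, 8.42 and 9.40 CPM (-0.47, adjusted p = 0.0827). Vps51, on the same strand, covers 12.1% of the Tm7sf2 exon length. In Nsdhl, Hsd17b7 and Tm7sf2, KO 146 was the lowest of all 6 libraries. Among the 3 libraries labelled KO alone, it was the lowest in 14 of the 18 synthesis enzymes and in 44.4% of all genes tested. Sqle, the epoxidase that commits squalene to sterols, had 41.5 to 50.8 CPM against 30.7, 33.6 and 41.0 CPM, so that KO 148 nearly reached the lowest CTRL library. Fdft1, the squalene synthase gene, and Lss, which closes the rings to lanosterol, stood at -0.25 and -0.23. Fdft1 overlaps Ctsb, on the other strand, over 18.3% of its exon length, and without a known strand setting those reads cannot be assigned. Ebp, a sterol isomerase, stood at -0.26. Cyp51, the lanosterol demethylase, varied within both groups (203, 281 and 278 CPM against 143, 255 and 214 CPM) and did not separate them. Dhcr7, the reductase at the end of the route, had the smallest difference of the 11, at -0.09 with 22.8 to 26.8 CPM over all libraries.

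**Figure D2:**
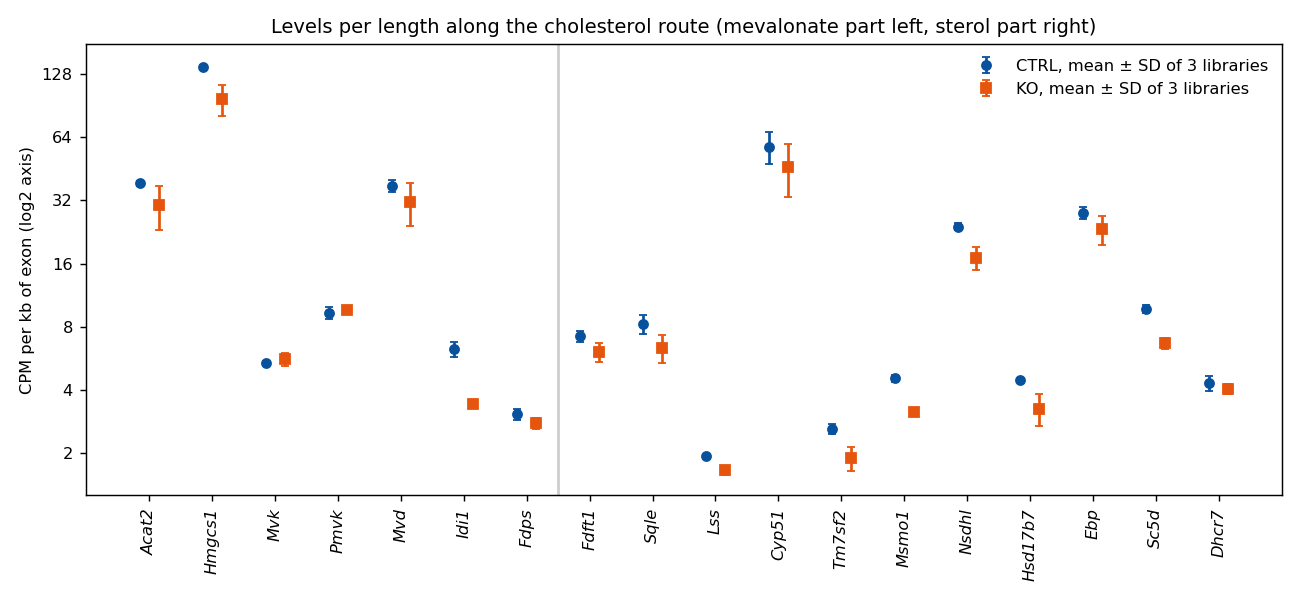
Level per length (CPM per kb of annotated exon, log2 axis) of the 18 synthesis enzymes, as mean and SD of 3 libraries per group. Hmgcs1 stands highest at 138 in CTRL and Lss lowest at 1.94. The error bars of Idi1, Msmo1 and Sc5d do not meet between the groups. Neither do those of several enzymes that were not called, such as Hmgcs1, Nsdhl, Hsd17b7 and Tm7sf2.

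Compared per length, as CPM per kb of annotated exon, the enzymes spanned a wide range. Hmgcs1 stood at 138 ± 3.73 in CTRL and Cyp51 followed at 57.5 ± 10. Acat2 (38.5 ± 0.961) and Mvd (37.6 ± 2.52) did not differ beyond their spread. Idi1 was 21st of the 32 members in CTRL at 6.27 ± 0.523 and 23rd in KO at 3.44 ± 0.144. Insig1 moved from 13th to 16th. Lss (1.94 ± 0.030) was the lowest enzyme, and the lowest member in CTRL was Abcg1 at 0.988 ± 0.097. Exon lengths here sum every annotated transcript, so members with long rarely used exons are placed too low.

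The 5 genes of the SREBP system all had a negative log2 fold change, in each of the 15 fits run. In all 5 the libraries labelled KO lay below CTRL, as in 19.6% of all genes. Insig1 fell (0.421% of all genes did), 0 were called higher (0.591%) and 4 did not pass, with a median of -0.23. Insig1 (ENSMUSG00000045294, chromosome 5, 28071363 to 28078662, plus strand) was at 40.6, 37.1 and 37.0 CPM in CTRL 157, 162 and 163 and at 24.7, 23.8 and 21.3 CPM in KO 146, 147 and 148. KO 148 was the lowest library for this gene, and the order within the KO group was not tested. The means were 38.2 ± 2.07 and 23.3 ± 1.73 CPM (SD, n = 3 each), with a log2 fold change of -0.72 (SE 0.090, edgeR adjusted p = 0.0332). Its paralog Insig2, which is not driven by SREBPs in the same way, was at 50.3, 51 and 53.7 CPM and at 45.6, 45.7 and 47.1 CPM (-0.16, SE 0.068, adjusted p = 0.169). The ratio of Insig1 to Insig2 per length, which does not depend on how libraries are scaled, was 0.907, 0.817 and 0.773 in CTRL and 0.608, 0.585 and 0.509 in KO. Every KO ratio was thus below every CTRL ratio, but how often other gene pairs do so was not counted.

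The transcription factor genes and their escort differed less. Srebf1, whose SREBP1 product favours fatty acid synthesis, was at 46.4, 46.9 and 47.9 CPM in CTRL and 41.2, 35.7 and 37.1 CPM in KO 146, 147 and 148 (log2 fold change -0.31, SE 0.081, edgeR adjusted p = 0.0793). Srebf2, whose product favours cholesterol synthesis, was at 99.3 ± 1.29 and 87.7 ± 1.94 CPM (-0.18, SE 0.069, adjusted p = 0.147). Scap, the escort, was at 85.4 ± 3.75 and 72.9 ± 2.36 CPM (-0.23, SE 0.074, adjusted p = 0.107). For each of these 3 genes the groups did not overlap (19.6% of all genes with KO below), yet the difference did not pass the test. The annotated gene 5830462I19Rik, on the other strand, covers 13.2% of the Scap exon length.

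**Figure D3:**
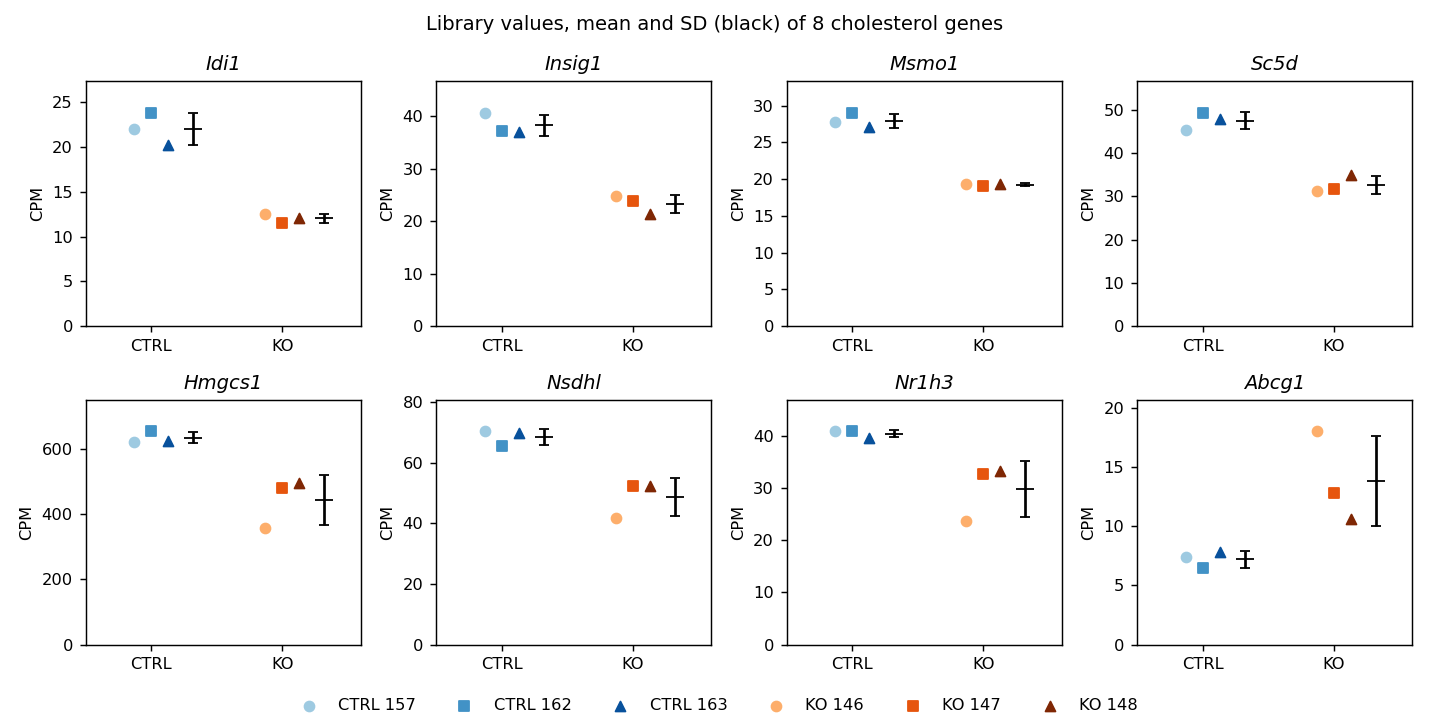
CPM of 8 cholesterol genes in each library (symbols), with the mean and SD of 3 libraries per group in black. The upper row shows the 4 genes that fell, whose KO libraries lie close together. In the lower row Hmgcs1, Nsdhl and Nr1h3 are lowest and Abcg1 highest in KO 146, at 357, 41.6, 23.6 and 18.0 CPM.

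Of the LXR genes and Mylip, edgeR, DESeq2 and limma-voom each called 0. In edgeR, 1 was lower at an unadjusted p below 0.05, Nr1h3 (11.8% of all genes were). Of all genes, edgeR called 0.421% lower and 0.591% higher, DESeq2 5.11% and 11.4%, and limma-voom 0.363% and 0.433%. With so few members, 0 calls were near these shares. Nr1h2, the widely expressed LXR beta, was at 82.4 ± 1.54 and 83.5 ± 1.93 CPM, a log2 fold change of 0.02 (SE 0.069). Nr1h3, LXR alpha, was at 40.8, 40.8 and 39.6 CPM in CTRL and 23.6, 32.6 and 33.3 CPM in KO 146, 147 and 148 (-0.44, SE 0.14, edgeR adjusted p = 0.102). Its groups did not overlap and KO 146 lay furthest from CTRL. Without KO 146 it was called, at -0.30 (adjusted p = 0.0128, with a range from 0.0128 to 0.987 over the 15 fits). Mylip was at 32.8, 44.1 and 31.2 CPM and at 52.6, 41.9 and 41.9 CPM (0.34, SE 0.16, adjusted p = 0.219), with CTRL 162 above 2 of the libraries labelled KO.

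The members that move and store cholesterol showed small differences. Of the 4, edgeR called 0, none had an unadjusted p below 0.05, and DESeq2 and limma-voom called 0. Of all genes, edgeR called 0.421% lower and 0.591% higher, and 11.8% and 17.5% were so at an unadjusted p below 0.05. DESeq2 called 5.11% and 11.4% of all genes, and limma-voom 0.363% and 0.433%. With so few members, 0 calls were near these shares. Npc1 and Npc2 hand cholesterol out of the lysosome. Their levels were 20.6 ± 0.753 against 19.8 ± 1.89 CPM and 167 ± 2.06 against 164 ± 25.4 CPM. Within the KO group Npc2 ran from 136 CPM in KO 146 to 184 CPM in KO 147. Stard4, a soluble sterol carrier, was at 75.7, 77.4 and 72.4 CPM in CTRL 157, 162 and 163 and at 62.8, 71.3 and 68.3 CPM in KO 146, 147 and 148 (-0.16, SE 0.080, edgeR adjusted p = 0.241). Its groups did not overlap. Soat1, which esterifies cholesterol for storage, was at 21.5 ± 1.28 and 21 ± 1.64 CPM.

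The export pumps differed from each other. Abcg1, which passes cholesterol to lipoprotein particles, was at 7.39, 6.43 and 7.82 CPM in CTRL and 18.0, 12.8 and 10.6 CPM in KO 146, 147 and 148. All 3 KO libraries lay above CTRL (log2 fold change 0.94, SE 0.21, edgeR adjusted p = 0.0755). Their order was that of the podocyte, endothelial and mesangial markers alike, and the reverse of the proximal tubule markers. The cell source of Abcg1 was not tested. Abcg1 was the only member with an unadjusted p below 0.05 in the higher direction. Abca1, which loads cholesterol onto apolipoproteins, was at 25.0, 28.1 and 23.3 CPM and at 21.6, 24.4 and 25.7 CPM (-0.09, SE 0.11, adjusted p = 0.599), with overlapping groups. With the proximal tubule markers as a covariate, described below, the Abcg1 log2 fold change was 0.24 (adjusted p = 0.579). DESeq2 called Abcg1, and over the 15 fits its adjusted p lay between 0.00172 and 0.579.

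Single libraries and the markers of tubule cells moved with these results. Proximal tubule markers averaged 10.12 to 10.23 log2 CPM in CTRL and 9.08, 9.67 and 9.80 in KO 146, 147 and 148. A fit with this average as a covariate therefore cannot separate marker level from group. With the mean log2 CPM of the proximal tubule markers as a covariate, edgeR called 2 members lower, Idi1 at -0.94 (adjusted p = 0.0251) and Insig1 at -0.85 (adjusted p = 0.0199), against 0.181% of all genes, and 0 higher, against 0.732%. The values of Msmo1 and Sc5d in that fit were -0.55 and -0.44 (adjusted p = 0.0747 and 0.116), and Hmgcs1, Hsd17b7 and Nr1h3 stood at -0.09, -0.02 and 0.03. Without KO 146 edgeR called 12 members lower and Abcg1 higher, against 6.62% and 10.5% of all genes, and without KO 148 it called 9 lower and Abcg1 higher, against 5.4% and 12.9%. With CTRL 157, CTRL 162, CTRL 163 or KO 147 left out it called 0 members, and 2, 3, 10 and 2 genes of the whole table. Those are 0.00569% higher and 0.00569% lower without CTRL 157, 0.0114% and 0.0057% without CTRL 162, 0.0284% and 0.0284% without CTRL 163, and 0.00574% and 0.00574% without KO 147. Without the filter on low counts it called 5 members lower and Abcg1 higher, against 1.31% and 1.41%. Scaled by library totals, edgeR called 0 members, against 0.293% of all genes lower and 0.667% higher, and Idi1, Insig1, Msmo1 and Sc5d stood at -0.72, -0.57, -0.40 and -0.41. Over all 15 fits run, adjusted p values lay between 2.51e-08 and 0.178 for Idi1, 1.91e-06 and 0.196 for Insig1, 3.62e-05 and 0.198 for Msmo1, and 0.000103 and 0.211 for Sc5d. All 4 were negative in every one of these fits.

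**Figure D4:**
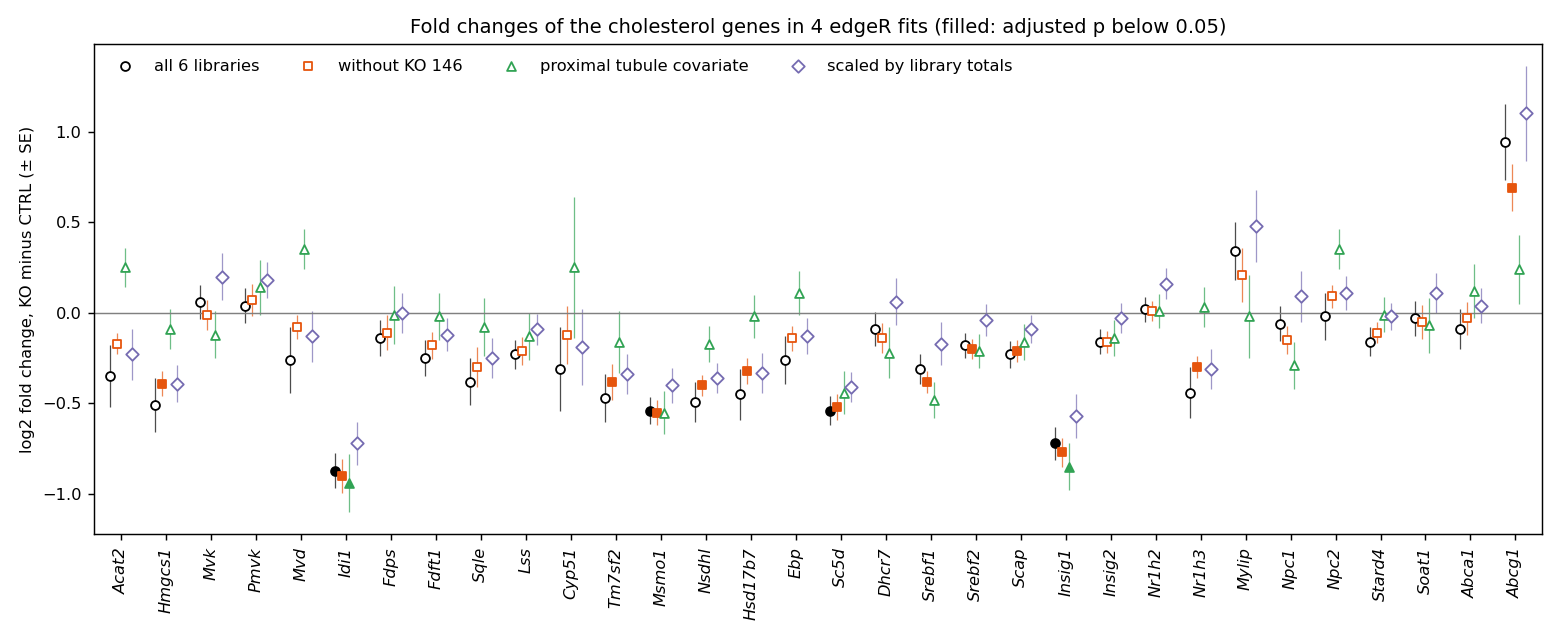
Log2 fold change (± SE, KO minus CTRL by label) of the 32 cholesterol genes in 4 edgeR fits, with filled symbols for an adjusted p below 0.05. Idi1 and Insig1 stay between -0.94 and -0.57 in the 4 fits, while Hmgcs1, Hsd17b7, Nr1h3 and Abcg1 move toward 0 with the proximal tubule covariate. That covariate did not overlap between the groups, so its fit cannot separate marker level from group.

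Genes around the route were taken from 8 lists. In 2 of these lists edgeR called 1 gene each, both lower (0.421% of all genes), and in the other 6 it called 0. Acox2, the peroxisomal oxidase that shortens the side chain of bile acid precursors, was at 44.1, 42.5 and 42.3 CPM in CTRL and 14.8, 14.4 and 18.0 CPM in KO 146, 147 and 148. The drop to 15.7 ± 1.99 CPM was the only call among 10 genes of oxysterol and bile acid synthesis (log2 fold change -1.45, SE 0.11, edgeR adjusted p = 0.00891). Acss2, which makes cytosolic acetyl-CoA from acetate, went from 253, 248 and 218 CPM to 118, 148 and 148 CPM and was the only call among 15 tested genes of fatty acid synthesis under SREBP1 (-0.80, SE 0.12, adjusted p = 0.0459). With the proximal tubule covariate Acox2 was called at -1.26, and Acss2 stood at -0.47 without a call. Over the 15 fits, adjusted p values lay between 1.11e-20 and 0.0927 for Acox2 and between 4.61e-06 and 0.239 for Acss2. Leaving out CTRL 157, CTRL 162, CTRL 163 or KO 147 ended both calls. Cyp7b1, an oxysterol hydroxylase, did not pass the test and ranged from 12.3 to 30.6 CPM within CTRL and from 6.30 to 7.61 CPM within KO (-1.76, SE 0.33, adjusted p = 0.0666). Fasn, the fatty acid synthase, stood at -0.40 (adjusted p = 0.0753).

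Lipoprotein uptake receptors were mixed. Of 12 tested, edgeR called 0 (0.421% of all genes lower and 0.591% higher). At an unadjusted p below 0.05, 5 were higher and 1 lower, against 17.5% and 11.8% of all genes. DESeq2 called 5 higher and 1 lower, against 11.4% and 5.11%. The same shares apply to the lists of LXR and SREBP genes that follow. Lrp1, a large endocytic receptor, was at 20.1, 20.6 and 24.8 CPM and at 144, 69.1 and 43.3 CPM in KO 146, 147 and 148 (1.97, SE 0.42, edgeR adjusted p = 0.0753), in the order of the podocyte, endothelial and mesangial markers. Cd36, a fatty acid and lipoprotein scavenger receptor, was at 207 to 320.4 CPM in CTRL and 97.3 to 125 CPM in KO (-1.15, SE 0.19, adjusted p = 0.0529). In the list of LXR partners and targets, with 11 tested, 3 were higher and 1 lower at an unadjusted p below 0.05, among them Pltp, a phospholipid transfer protein, at 1.37 and Smpdl3a, a phosphodiesterase, at -0.55. DESeq2 called 2 higher and 1 lower there. Among 11 genes of SREBP processing and sterol-regulated degradation, 0 were higher and 3 lower at an unadjusted p below 0.05 and DESeq2 called 1 lower. Rnf145, a sterol-responsive ubiquitin ligase, was at 98.6 to 109 CPM and at 81.2 to 82.7 CPM (-0.35, SE 0.075, adjusted p = 0.0753), and Erlin1 stood at -0.45.

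The lists of sterol transfer, ester storage and the nonsterol isoprenoid branch had no calls in edgeR or limma-voom. Of all genes, these called 0.421% and 0.363% lower and 0.591% and 0.433% higher. At an unadjusted p below 0.05, 2, 0 and 0 of the 16, 7 and 14 tested genes of these lists were higher and 6, 3 and 3 lower. DESeq2 called 2, 0 and 0 higher and 3, 2 and 1 lower. Over all genes, 17.5% were higher and 11.8% lower at that unadjusted p, and DESeq2 called 11.4% higher and 5.11% lower. The medians of the lists were -0.20, -0.25 and -0.17. Osbpl8, an oxysterol-binding protein of membrane contacts, stood at -0.54 and Gramd1a, a sterol carrier of such contacts, at 0.35. The carboxylesterase genes Ces1f and Ces1d stood at -0.88 and -0.60, and have close paralogs. Rabggta, a subunit of the enzyme that attaches isoprenoids to Rab proteins, stood at -0.52, and Pdss1, which builds the ubiquinone tail, at -0.44. The adjusted p values of these 6 genes lay between 0.0614 and 0.0957 in edgeR.

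**Figure D5:**
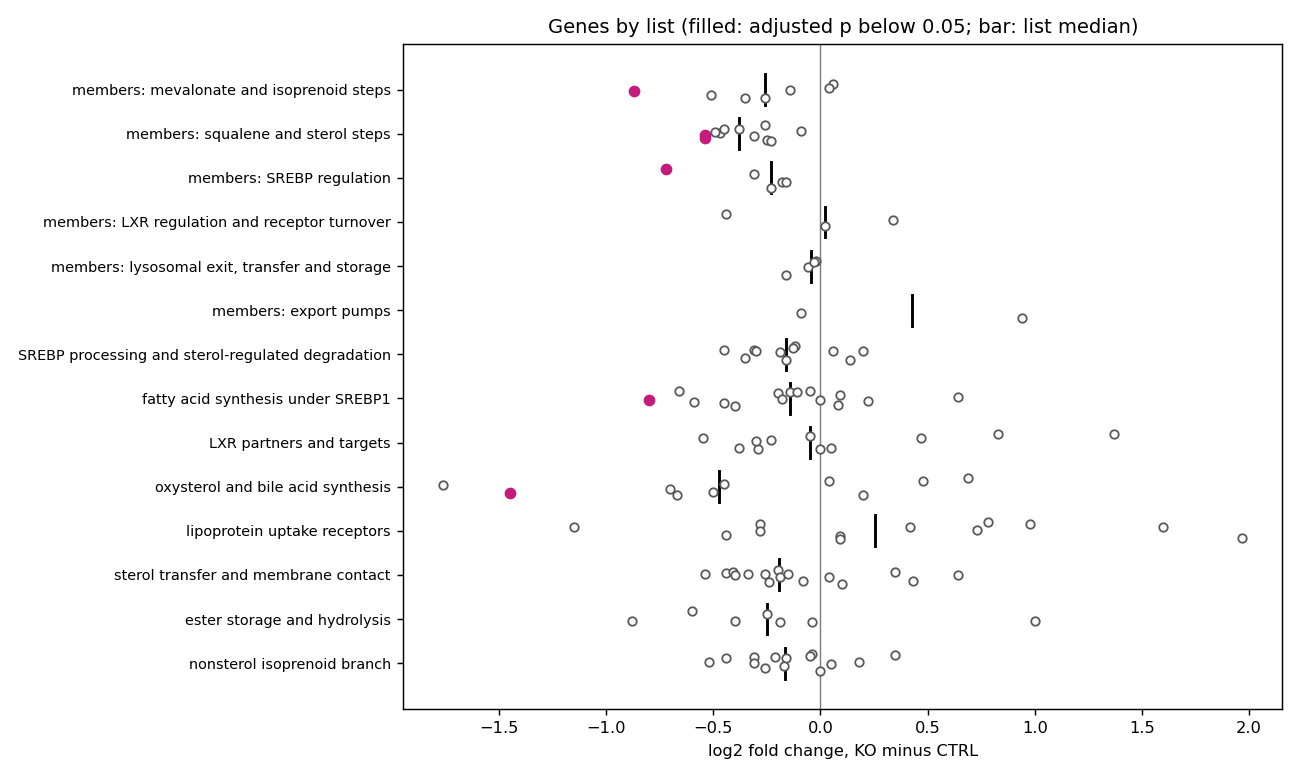
Log2 fold change (KO minus CTRL by label) of each tested gene, by role of the cholesterol genes (upper 6 rows) and by list of neighbouring genes (lower 8 rows), with filled symbols for an edgeR adjusted p below 0.05 and bars for list medians. The 6 filled symbols all lie left of 0, and the uptake receptors spread from -1.15 to 1.97.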

How the data were processed

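The authors deposited 1 file of unnormalized counts for each library. The tools named, without roles, in the submitters' processing notes are DESeq2, HTSeq 0.11.1, STAR 2.6.0 and fastp 0.19.5. The notes list GRCh37, a human build, while the identifiers are mouse, so the build is uncertain. No source used here gives the strand setting. The last 5 lines of each file name no gene and were left out. They include reads aligned to more than 1 place (22.5% to 29.6% of records), which are missing from genes with copies.

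Names and positions came from GENCODE M21 (GRCm38), which named 54723 identifiers. Promoters came from RefSeq (GRCm38.p6). In R 4.3.3, edgeR 4.0.16 was run with TMM, filterByExpr (minimum count 10) and the robust quasi-likelihood test, and p values were adjusted by Benjamini-Hochberg over 17086 genes at 0.05. SE is the absolute log2 fold change over the square root of F. The scripts were tested on simulated data. Alternatives were DESeq2 1.42.0, limma-voom 3.58.1, other scalings, no count filter, no robust step, marker covariates and leaving out each library. Replicate pairs differed beyond counting noise (chi-square per degree of freedom 16.7 or more). The labels give each library its own number, taken here to stand for separate mice, and no batch is given.

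The members and lists were chosen with earlier results of these data known. All members are accounted for. The member with the smallest adjusted p in each role is given by library, and each neighbouring list contributes its called genes and the 2 with the smallest p. Genes outside this rule were chosen after their values were seen. No set test was run.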

Additional observations from a re-analysis of the deposited data

How the results depend on the processing

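No paired analysis was possible because the groups share no replicate number. The number of genes called over the whole table was 173 (101 higher, 72 lower), and 2874 with DESeq2, 960 without the filter on low counts, 299 with the endothelial and mesangial covariate and 2 to 3211 when 1 library was left out, the upper end without KO 148. Scaling by library totals gave 114 higher and 50 lower. Members called lower numbered 4, and 8 with DESeq2, 0 with library totals, 2 with the proximal tubule covariate and 0 to 12 when 1 library was left out. Members called higher numbered 0, and 1 with DESeq2, 1 without the count filter and 0 to 1 when 1 library was left out. The median log2 fold change of the members was -0.24, and -0.11 with library totals, -0.07 with the proximal tubule covariate and -0.06 with the endothelial and mesangial covariate. The cause of these changes was not tested. The marker levels used as covariates did not overlap between the groups, so those fits cannot separate marker level from group.

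Signs turned for genes that were not called. With the proximal tubule covariate the log2 fold changes were Acat2 0.25, Mvk -0.12, Mvd 0.35, Cyp51 0.25, Ebp 0.11, Nr1h3 0.03, Mylip -0.02, Npc2 0.35, Abca1 0.12, Pltp -0.16, Smpdl3a 0.01 and Arhgef7 -0.46. With the endothelial and mesangial covariate they were Acat2 0.21, Mvk -0.11, Mvd 0.30, Cyp51 0.25, Ebp 0.11, Nr1h3 0.01, Npc2 0.32, Abca1 0.13, Pltp -0.20 and Arhgef7 -0.43. With library totals they were Dhcr7 0.06, Npc1 0.09, Npc2 0.11, Soat1 0.11 and Abca1 0.04. With 1 library left out, values ran from -0.02 to 0.08 for Pmvk, from -0.08 to 0.03 for Soat1 and from -0.07 to 0.28 for Arhgef7. Leaving out CTRL 157 gave Pmvk -0.02 and Nr1h2 0.00, leaving out CTRL 162 gave Soat1 0.00, leaving out KO 147 gave Soat1 0.03, and leaving out KO 146 gave Mvk -0.01, Npc2 0.09 and Arhgef7 -0.07. Groups of 3 limit every call, and members with low counts, such as Abcg1 (245 to 1065), carry more counting error than Hmgcs1.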

Other observations

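Ratios within a library do not depend on its scaling, and 4 further pairs of cholesterol genes are given per length with no test. Srebf2 over Srebf1 stood at 1.67, 1.68 and 1.61 in CTRL (157, 162, 163), against 1.7, 1.88 and 1.86 in KO (146, 147, 148). Nr1h2 over Nr1h3, the ratio of LXR beta to LXR alpha, stood at 1.48, 1.53 and 1.58 in CTRL, against 2.65, 1.97 and 1.84 in KO. Abca1 over Abcg1 stood at 2.39, 3.07 and 2.10 in CTRL, against 0.842, 1.35 and 1.71 in KO. The groups did not overlap in any of these 3 ratios. How often other gene pairs separate the groups was not counted. Single genes did so in 19.6% of all genes with KO below and 21.9% with KO above. Idi1 over Hmgcs1 stood at 0.0461, 0.0477 and 0.0422 in CTRL, against 0.0460, 0.0314 and 0.0321 in KO, so that KO 146 lay within the CTRL range. Proximal tubule and podocyte marker levels did not overlap between the groups either, and their part in the ratios was not tested.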
